A study of Mus musculus with 2 samples.

Results

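Of 9 genes that take up, store, oxidise and bind vitamin A and its products, 2 gave a signal well above background in skin. The skin came from Pla2g2f-transgenic mice and littermate controls, and 1 of the 2 genes, Aldh1a3, was lower in the transgenic skin. The genes were taken by name as a functional group: Stra6 for uptake, Lrat for storage, Rdh10 and Dhrs9 for the first oxidation, Aldh1a1, Aldh1a2 and Aldh1a3 for the second, and Crabp1 and Crabp2 for binding. The group was chosen with earlier results of these data known. All 9 had a probe on the array, 13 of 41167 probes in all, and the array held 27594 genes or transcripts. The compared groups were skin of Pla2g2f-Tg/+ mice, which overexpress a secreted phospholipase A2, and skin of their littermate controls. Both were 25 days old, on a C57BL/6 background and on the same standard diet, and total RNA of 4 mice was pooled for each genotype. The labels name neither the promoter nor the cell type that drives the transgene. The pools were hybridised against each other on 2 arrays, with the transgenic pool in Cy5 on array 1 and in Cy3 on array 2, and each ratio is transgenic over control. Nothing in the labels separates the pools of the 2 arrays. The difference between arrays is therefore taken as technical, each genotype counts as 1 sample, and no test over mice was possible.

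Vitamin A reaches skin cells as retinol bound to a serum carrier, and the membrane receptor Stra6 can take it up. Inside the cell it is stored as retinyl esters, made by Lrat, or oxidised in 2 steps, first to retinal and then, by the retinaldehyde dehydrogenases of the Aldh1a family, to retinoic acid. Retinoic acid is carried by the binding proteins Crabp1 and Crabp2, acts through nuclear receptors that bind DNA as pairs, and is broken down by enzymes of the Cyp26 family. In skin it is known for its control of keratinocyte differentiation, of sebaceous glands and of the hair cycle.

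The ratio of Aldh1a3 rests on a pair of probes and that of Aldh1a1 on 1 probe, so a stretch of each probe (its last 30 bases as the array file lists them) is shown to say what was hybridised. Capitals mark the hexamer AATAAA, the usual signal for polyadenylation near the end of a transcript.
Aldh1a3, NM_053080: gttcagcaatgaaaaAATAAAgttggacac
Aldh1a3, BC026667: cgtaaactattagaaaaattttccagttcc
Aldh1a1, NM_013467: gtgactccttgaagtactcaccacacataa
In the array design, on the mm8 build, the Aldh1a3 probes lie on chromosome 7, minus strand, at 66269849 to 66269908 and at 66287971 to 66288030, which is 18122 bases apart, and the one with the hexamer is the further downstream. The Aldh1a1 probe lies on chromosome 19, plus strand, at 20710371 to 20710430. Which exon or untranslated region each probe falls in was not annotated here.

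Background set the limit for most of the 9 genes. A probe was counted as measured where, on array 1, the scanning program called the transgenic or the control channel well above background, as 10456 of the 27594 genes were. The lowest such signals were 190.0 in the transgenic channel and 198 in the control channel, and 311 spots of negative controls had median signals of 101 (transgenic channel) and 97.5 (control channel). Of the 9 retinoid genes, 7, with 10 probes, were dim in both channels. The signals of these 10 probes ran from 98.5 to 168 in the transgenic channel and from 86.1 to 209 in the control channel. A ratio of such probes mostly compares background with background: over all 27826 probes dim in both channels, 95% of log2 ratios lay between -0.59 and 0.63 on array 1 and between -0.71 and 0.76 on array 2. A low signal in whole skin also cannot tell fewer cells of a type from less RNA per cell.

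**Figure D1:**
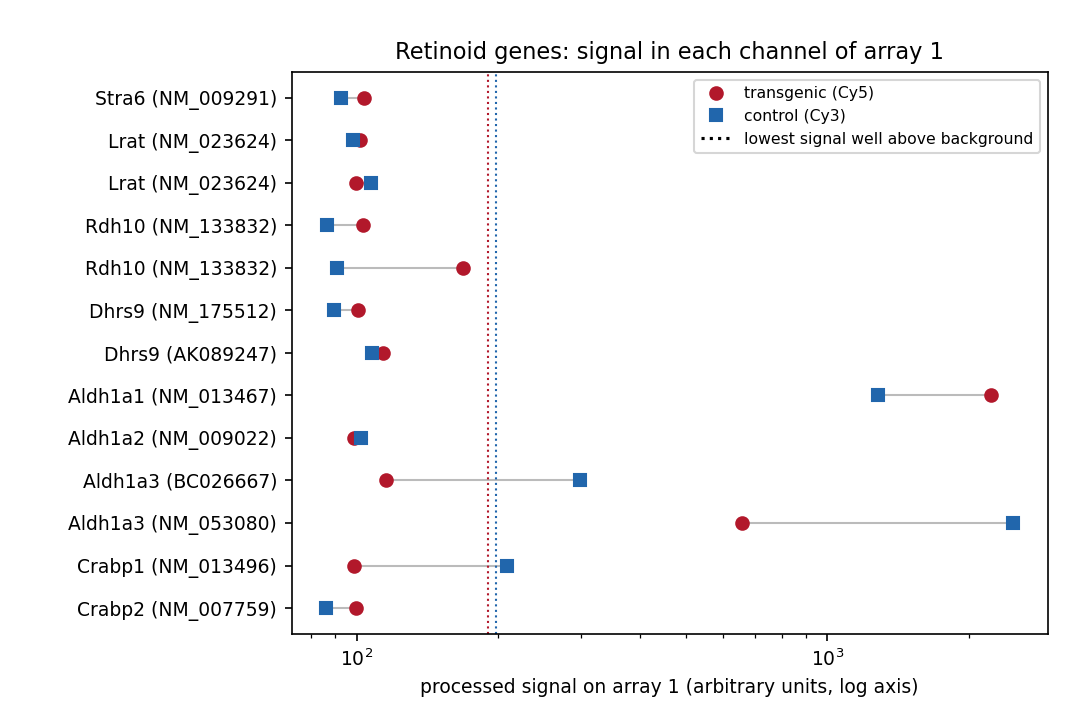
Processed signal of each retinoid gene's probes in the transgenic (Cy5) and control (Cy3) channels of array 1, on a log axis, with dotted lines at the lowest signal well above background in each channel. Aldh1a1 and both probes of Aldh1a3 stand clear of the lines in at least 1 channel, and the 10 other probes, Crabp1 included, were not called well above background in either.

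Uptake and storage had no probe well above background. Stra6, the membrane receptor for the retinol carrier, had signals of 104 in transgenic and 92.6 in control skin, with log2 ratios of 0.17 on array 1 and 0.26 on array 2. Lrat, which joins retinol to fatty acids from membrane lipid, had signals of 99.6 in transgenic and 107 in control skin at one probe and of 102 in transgenic and 98.3 in control skin at the other. The control signal of 107 was above local background by the scanning program's test, though not well above it. The log2 ratios of the Lrat probes ran from -0.28 to 0.05. All these signals lay near those of the negative controls, and the ratios lay within the range of dim probes.

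The first oxidation had no probe well above background either. Rdh10, the main retinol dehydrogenase of the mouse embryo, had a probe with signals of 168 in transgenic and 91.0 in control skin and log2 ratios of 0.88 and 0.20. Both channels were above local background by the scanning program's test, though not well above it. The ratio on array 1 lay above the range that held 95% of dim probes, and that on array 2 lay within it. Its other probe gave 0.26 on array 1 and -0.11 on array 2. Dhrs9, a short-chain dehydrogenase that can oxidise retinol, had signals of 101 and 114 at its 2 probes in transgenic skin, against 89.5 and 108 in control skin. The control signal of 108 was above local background by the same test, though not well above it. The log2 ratios of Dhrs9 ran from 0.08 to 0.17, within the range of dim probes on both arrays.

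The second oxidation held the only measured members. Aldh1a3, a retinaldehyde dehydrogenase, had a signal of 657 in transgenic skin, against 2481 in control skin, at the probe near the polyadenylation hexamer. The arrays gave log2 ratios of -1.92 (array 1) and -1.98 (array 2), a mean of -1.95 ± 0.04 (SD of the 2 arrays of 1 pool per genotype), or 3.85-fold lower. The error that the scanning program gives that spot on array 1 is 0.27 on the log2 scale. Both arrays passed the rule used to call a gene, a 2-fold or larger difference of 1 sign on both. The upstream probe of Aldh1a3 pointed the same way, with signals of 115 in transgenic and 297 in control skin and log2 ratios of -1.37 and -1.17. Its transgenic channel was dim, and with the lowest detected signal of that channel in its place the probe was at least 1.57-fold lower (array 1, open to dye bias). Of all measured genes, 79 had a lower mean ratio than Aldh1a3.

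Aldh1a1, which makes retinoic acid from retinal and is a major retinaldehyde dehydrogenase of adult tissues, had a signal of 2223 in transgenic skin, against 1278 in control skin. Its log2 ratio was 0.80 on array 1 but 0.10 on array 2, a mean of 0.45 ± 0.49 (SD of the 2 arrays). It did not pass the rule, and its arrays differed by 0.69, more than for most genes: 7.45% of measured genes had a larger difference, and the median difference was 0.23. Aldh1a2, the retinaldehyde dehydrogenase of the early embryo, stayed at background with signals of 98.6 in transgenic and 102 in control skin and log2 ratios of -0.05 and 0.07. Of the measured pair, Aldh1a3 passed the rule and Aldh1a1 did not. The log2 ratio of Aldh1a3 minus that of Aldh1a1 was -2.71 on array 1 and -2.08 on array 2, a difference within each array that no shift of its scale alters.

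Aldh1a7, which is close to Aldh1a1 in sequence and near it on chromosome 19, is no member of the group and was added after its values were seen. Its signal was 1177 in transgenic skin, against 378 in control skin, with log2 ratios of 1.64 and 1.90, and it passed the rule as higher. The probes of Aldh1a1 and Aldh1a7 share no run longer than 8 bases. Whether the Aldh1a1 probe also binds Aldh1a7 RNA was not tested. With normexp background correction of array 1, Aldh1a7 no longer passed. Its mean was then 1.29, which includes the unchanged ratio of array 2, and array 1 fell short of 2-fold.

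Binding of retinoic acid was also dim. Crabp1, a cytosolic retinoic acid binding protein, had a signal of 98.5 in transgenic skin, against 209 in control skin, and log2 ratios of -1.08 and -0.58. The control signal was above local background by the scanning program's test but was not called well above it. It did exceed 198, the lowest signal so called in the control channel. The ratio on array 1 lay below the range of 95% of dim probes and that on array 2 within it. A lower level in transgenic skin was thus neither shown nor excluded at this signal. Crabp2, which hands retinoic acid to its nuclear receptor, had signals of 99.8 in transgenic and 86.1 in control skin. The log2 ratio of Crabp2 was positive on array 1 (0.21) and negative on array 2 (-0.27).

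**Figure D2:**
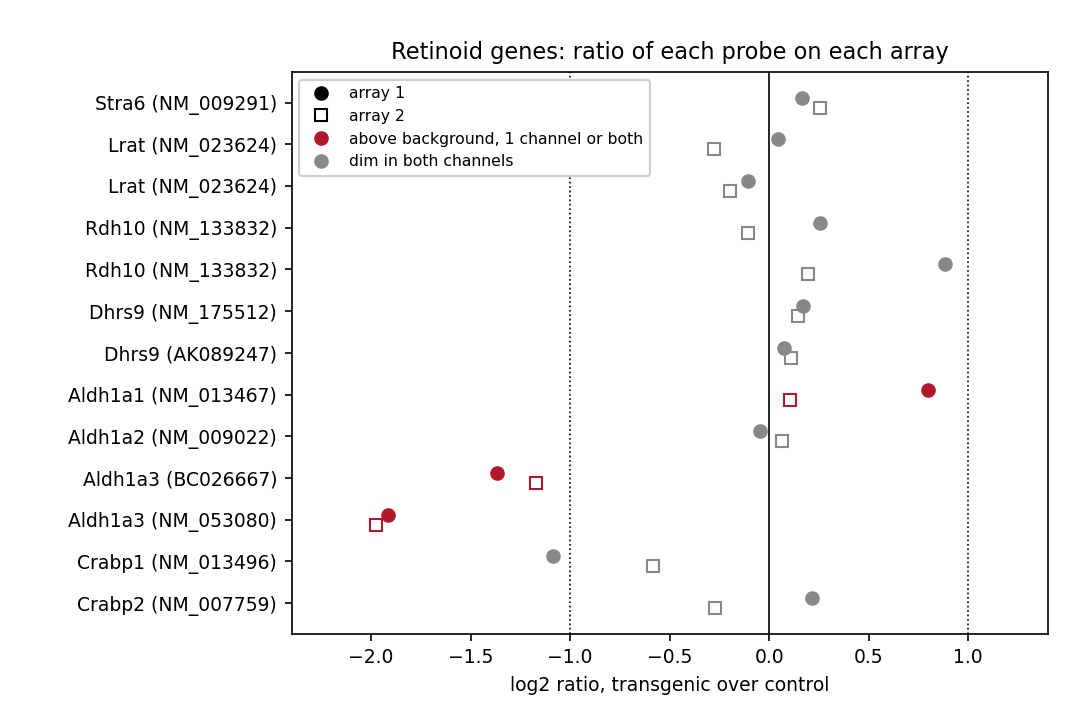
Log2 ratio of transgenic over control for each probe of the 9 retinoid genes, filled circles for array 1 and open squares for array 2, red where at least 1 channel of array 1 was well above background and grey where both were dim. The dotted lines mark 2-fold, and only the Aldh1a3 probes lie beyond 2-fold on both arrays.

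Counted over the group, 0 of the 9 genes were called higher and 1 of 9 was called lower, and both counts can only come from the 2 measured genes. Over all 10456 measured genes, 3.72% were called higher (389 genes) and 1.68% lower (176 genes). With 2 measured members, chosen with earlier results of these data known, the count is no property of the group. The median log2 ratio over the 2 measured members was -0.75, beside -0.0079 over all measured genes. The array scale moved the calls of many genes. The 10 spike-in probes had a mean log2 ratio of 0.47, with 0.55 on array 1 and 0.39 on array 2. Whether equal amounts of the spike-ins went into both pools was not tested, so their scale is an alternative and not a standard. Centred on the spike-ins, the median gene lay at -0.48 and 172 genes were higher and 475 lower. Aldh1a3 was then at -2.42 and still called, an outcome fixed in advance because this scale lowers every ratio. Aldh1a1 was then at -0.019.

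The transgene served as the check of the labels. The Pla2g2f probe had a signal of 683 in transgenic skin, against 471 in control skin. Its log2 ratios of 0.54 (array 1) and 0.34 (array 2) did not pass the rule. They were no higher than the mean ratios of the spike-ins, 0.55 on array 1 and 0.39 on array 2. The check therefore did not settle the labels, and the direction of every ratio rests on them. Whether the transgene's transcript contains this probe was not tested.

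The rest of the pathway was read from 7 lists of 76 genes, of which 74 had a probe and 45 were measured. Of these 45, 13 were called higher and 0 lower, beside the 3.72% and 1.68% of all genes, and the median log2 ratio was 0.52. The lists were chosen with earlier results of these data known. Their counts, here and by step below, therefore cannot be read as enrichment of the pathway. The log2 ratio was above 0 on both arrays for 34 of the 45, below 0 on both for 7 and of opposite sign for 4. On the spike-in scale their median was 0.05, and 5 of the 13 were still called higher: Sdr16c5, Sdr16c6, Ces1d, Cyp2e1 and Rarres1. With normexp and loess on array 1, 4 of the 13 were still called, Sdr16c6, Pnpla2, Cyp2e1 and Rarres1, so Sdr16c5 (mean 1.35) and Ces1d (mean 1.33) lost the call there. A call needs 2-fold on each array, so it can be lost while the mean stays above 2-fold. Means with normexp, here and below, include the unchanged ratio of array 2, so these calls were lost on array 1.

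Of 5 measured genes for the transport and binding of retinol, 2 were called higher and 0 lower, with a median log2 ratio of 1.13. Rbp4, the serum carrier of retinol, had signals of 2379 in transgenic and 1106 in control skin, with 1.11 and 1.15. It lost the call with the spike-in scale (mean 0.66) and with normexp (mean 0.91). The remaining 3 did not pass. Lpl, the lipoprotein lipase, which also frees retinol from chylomicron esters, lay at 1.44 and 0.98, just under 2-fold on array 2, Rbp7 at 0.83 and 0.88 and Scarb1 at 0.57 and 0.48.

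Enzymes between retinol and retinal had 5 of 14 measured genes called higher and 0 lower, with a median of 0.55, or 0.08 on the spike-in scale. The pair Sdr16c6 and Sdr16c5, short-chain dehydrogenases that oxidise retinol, had the highest ratios of this step. Sdr16c6 had a signal of 2254 in transgenic skin, against 446 in control skin, and log2 ratios of 2.34 and 2.58, a mean 5.49-fold. Sdr16c5 had signals of 699 in transgenic and 184 in control skin, with 1.92 and 2.19. Its control channel was dim on array 1, where it was at least 3.53-fold higher. Rdh11, which mainly reduces retinal in vitro, was called at 1.47 and 1.38. The alcohol dehydrogenases Adh7 and Adh1, which accept retinol, were called, with mean ratios of 2.59-fold for Adh7 and 2.11-fold for Adh1. Rdh11, Adh7 and Adh1 lost the call with the spike-in scale (mean log2 ratios 0.96, 0.90 and 0.61) and also with normexp (1.19, 0.95 and 0.89). Dhrs3, which turns retinal back into retinol and is itself induced by retinoic acid, had 0.41 and 0.27 and was not called. The list holds enzymes of both directions.

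Beside the Aldh1a genes, the second oxidation had 1 measured gene of 5 listed, the aldehyde oxidase Aox1, with log2 ratios of 0.52 and 0.76. The ester list had 3 of 6 measured genes called higher. Dgat1, which esterifies diacylglycerol and also retinol, had a signal of 643 in transgenic skin, against 236 in control skin, and log2 ratios of 1.44 and 1.88. The control channel of Dgat1 was dim on array 1, though its signal there lay above the lowest signal well above background. Dgat1 lost the call with the spike-in scale (mean 1.19) and with normexp (mean 1.17). The carboxylesterase Ces1d, one of several near copies and so uncertain as to source, was called at 1.71 and 1.86, and the triglyceride lipase Pnpla2 at 1.17 and 1.14, though not with the spike-in scale (mean 0.69). All 3 are also known as enzymes of triglyceride metabolism.

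Breakdown of retinoic acid had 1 of 4 measured genes called. Cyp2e1, a broad oxidase better known for ethanol and fatty acids, had a signal of 1508 in transgenic skin, against 191 in control skin, and log2 ratios of 2.98 and 3.13. Its control channel was dim, and it was at least 7.62-fold higher on array 1. Cyp26b1, the member of the dedicated Cyp26 family that was measured, had signals of 3668 in transgenic and 2666 in control skin and log2 ratios of 0.46 and 0.15, and was not called. Cyp2s1, an epidermal cytochrome that can oxidise retinoic acid, was below 0 on both arrays at -0.93 and -0.51 and was not called. None (0) of 9 measured receptors, delivery proteins and cofactors was called. Their largest absolute means belonged to Fabp5, which delivers fatty acids and retinoic acid, at 1.27 and 0.93 with a dim control channel, to Rxrg at 0.41 and 0.63 and to Rxra at 0.43 and 0.32, both partners of the retinoic acid receptors. All 3 retinoic acid receptors, Rara, Rarb and Rarg, were dim in both channels.

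**Figure D3:**
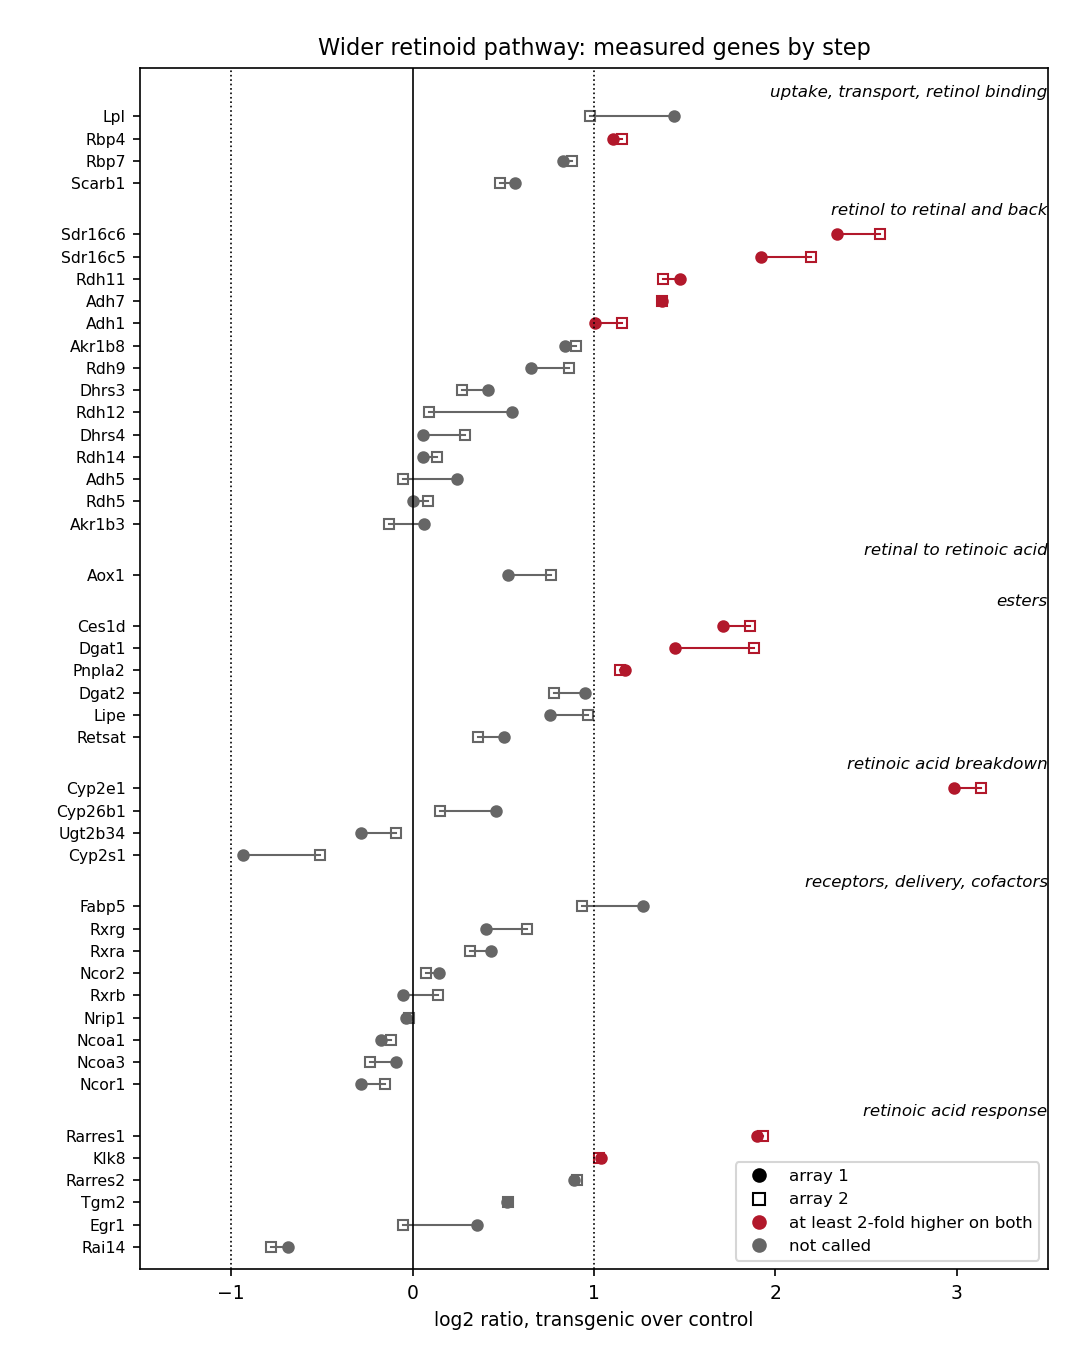
Log2 ratio of transgenic over control for 44 of the 45 measured genes of the wider retinoid pathway, by step, with filled circles for array 1, open squares for array 2 and dotted lines at 2-fold. Red marks 12 of the genes at least 2-fold higher on both arrays, which lie in the steps of transport, retinol oxidation, esters, breakdown and response.

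Genes known to respond to retinoic acid had 2 of 6 measured members called higher. Rarres1, first described as induced by a synthetic retinoid in skin, had a signal of 7757 in transgenic skin, against 2084 in control skin, and log2 ratios of 1.90 and 1.93. Klk8, a serine protease of the epidermis, was called at 1.04 and 1.03, and fell short with the spike-in scale (mean 0.56) and with normexp. The others were not called, among them Rarres2 at 0.89 and 0.90, Tgm2 at 0.52 and 0.53 and Rai14 at -0.69 and -0.78. The response element that retinoic acid receptors bind best was then looked for in promoters.

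The element, DR5, is a direct repeat of a hexamer with 5 bases between the copies. The hexamers allowed were AGGTCA, the consensus, together with GGGTCA, further with AGTTCA, and lastly with GGTTCA, in any pairing. DR5 was searched on both strands of the 250 bases before and 50 after each gene's start. Of 32851 such windows of RefSeq genes, 32 held it, which is 0.0974%. Of the 85 members and listed genes, 62 had a window, and 2 held the element, Cyp26a1 and Rarb. The windows of these 2 are shown around the element because both genes are known direct targets of retinoic acid, with the element in capitals.
Rarb, chr14:16575493-16575549, minus strand: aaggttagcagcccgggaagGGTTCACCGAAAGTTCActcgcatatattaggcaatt
Cyp26a1, chr19:37697756-37697812, plus strand: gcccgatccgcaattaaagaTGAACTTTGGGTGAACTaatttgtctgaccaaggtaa
Both are from RefSeq, build GRCm38.p6, and their elements begin 53 (Rarb) and 32 (Cyp26a1) bases before the start site, that of Cyp26a1 on the opposite strand. Neither gene was called well above background. Cyp26a1 had signals of 102 in transgenic and 103 in control skin and log2 ratios of -0.02 and 0.03. Rarb had signals of 148 in transgenic and 213 in control skin, with a log2 ratio of -0.53 on array 1 and one that rounds to 0 on array 2. The element was in 0 of the 6 members' windows and in 0 of the 9 windows of the 13 genes called higher. Aldh1a3, Rdh10 and Crabp2 had no window, so the only called member was not searched. With the element in 0.0974% of all windows, its absence from so few windows says nothing about these genes. A repeat with 2 bases between the copies was in 0 of the 62 genes and in 88 of all windows, and one with 1 base was in 1 of the 62, Bco1, and in 73 of all windows.

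Markers of skin cells moved in the same direction as several of these genes. All 12 measured hair shaft and matrix markers were called lower, with a median log2 ratio of -2.52 and a summed signal on array 1 of 13566 in transgenic and 95749 in control skin. Of those with a probe, 0 were dim in both channels. The transgenic channel of Krt31, Krt34, Krt86, Hoxc13 and Dlx3 was dim on array 1. There Hoxc13 was at least 1.28-fold lower, short of 2-fold, and each of the others at least 3.16-fold lower. Inner root sheath markers had 6 of 7 lower, with a median of -2.25 and sums of 65204 in transgenic and 297240 in control skin. Melanocyte markers had 4 of 4 lower. Of the dermal papilla markers, cells at the hair root where Crabp1 is known to be expressed, 7 of 13 were measured, 2 lower, 1 higher and 4 not passing, with a median of -0.81. The ratio of Aldh1a3 lay near the weaker end of the hair shaft list, whose means ran from -4.87 to -1.65. It also lay within the inner root sheath list, whose means ran from -3.73 to -0.64. In the other direction, 9 of 9 measured sebaceous markers were called higher, with a median of 2.07 and sums of 156935 in transgenic and 48667 in control skin, and 3 more were dim. Adipocyte markers had 6 of 6 measured called higher, with a median of 1.49 and sums of 342915 in transgenic and 106215 in control skin, and macrophage and dendritic cell markers 5 of 6. None (0) of the 13 pathway genes called higher is on a marker list, but the pathway and marker lists share no gene. That absence therefore says nothing about which cells express the 13 genes. Fibroblast markers, with 0 of 8 called, and basal epidermis markers, with 1 of 6 called higher, had medians of 0.39 (fibroblast) and 0.24 (basal epidermis), which changed sign on the spike-in scale, to -0.08 (fibroblast) and -0.23 (basal epidermis). Suprabasal epidermis markers had 1 of 9 called higher with a median of -0.16, and endothelium markers 1 of 3 with a median of 0.64. The part of these cell types in the ratios of the retinoid genes was not tested.

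**Figure D4:**
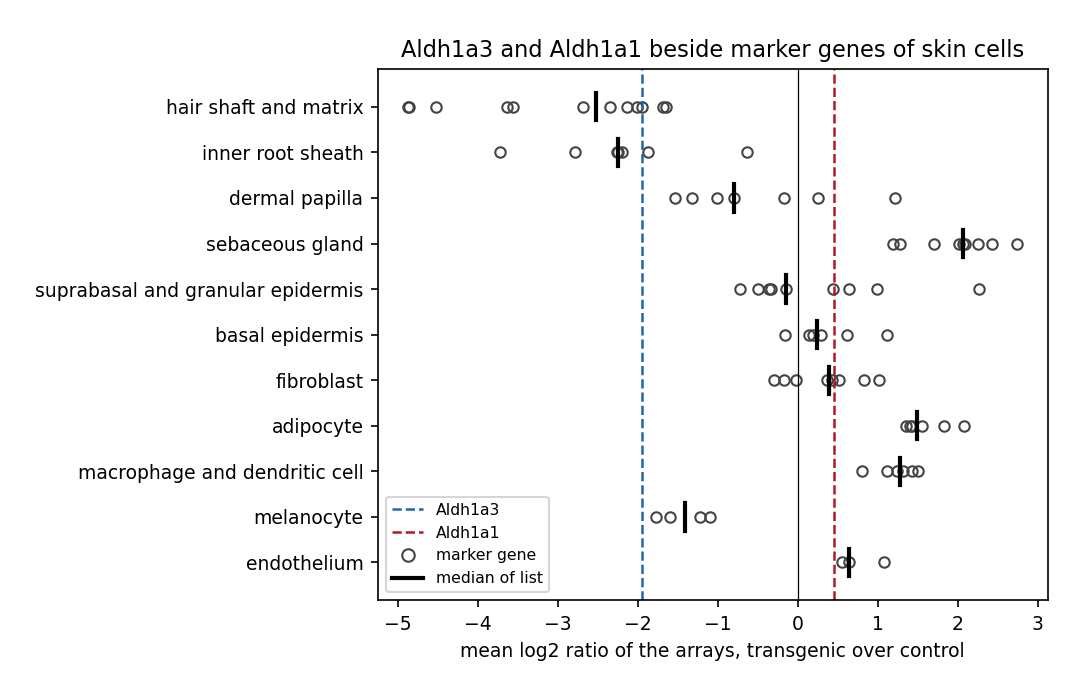
Mean log2 ratio of the 2 arrays, transgenic over control, of each measured marker gene (circles) by cell type, with the median of each list as a bar and dashed lines at Aldh1a3 (-1.95) and Aldh1a1 (0.45). Aldh1a3 lies within the ranges of the hair shaft and matrix markers and of the inner root sheath markers, and all 9 sebaceous markers lie above Aldh1a1.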

How the data were processed

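Total RNA (500 ng per labelling) from pooled skin was hybridised to 2 two-colour Agilent arrays with exchanged dyes. Spot values came from Feature Extraction 9.5.1.1, per the submitters' processing notes. The deposited intensity values of array 1 are, per the file headers, background-subtracted, detrended, dye-normalised and, where dim, replaced by surrogates, which draws ratios near background towards 0. The deposited p-value of each spot, per the file headers, rests on an error model of 1 array and was not used. The deposited table gives 1 log10 ratio per spot and array. For array 1 it equals log10 of Cy5 over Cy3 at all 43790 spots (within 1e-06). For array 2 the direction follows from the dyes in the labels. The columns as deposited correlated at -0.579 over spots that are not controls. Their medians were 0.0145 and -0.0243, so they were not centred, and no later step by the authors is stated. Of array 2 the deposited ratio alone was analysed, so its background and saturation are unknown.

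Ratios were turned to log2 transgenic over control. Control spots and 29 outlier spots were left out, spots of a probe were averaged, and a gene took the value of its brightest probe. Probes were named through RefSeq (GRCm38.p6) with 24370 matched by accession, 6300 by symbol and 2425 by synonym. The other 8072 keep the name in the array file. Of the 13 probes of the 9 retinoid genes and 126 of the wider lists, 116 matched by accession, 22 by symbol and 1 by synonym. A gene was called at 2-fold or more the same way on each array. Precision is limited by having 2 arrays. Over 10 probes printed 10 times the median SD of log2 ratios between spots was 0.09 (array 1) and 0.10 (array 2). Slide and scan date could not be separated from dye orientation. Alternatives changed the filter, arrays, centring, background correction (normexp with offset 50 and loess, limma 3.58.1), probe rule and threshold. Python 3.11.15 and R 4.3.3 were used. The members and lists were chosen with earlier results of these data known. Named are all members, every called gene of the wider lists except 1 that is not reported here and, for lists with none, the 3 with the largest absolute means. Other genes named were chosen after their values were seen.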

Additional observations from a re-analysis of the deposited data

How the results depend on the processing

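Aldh1a3 was called lower under each of the 5 alternatives in centring, background correction and probe rule, with values from -2.42 to -1.53. Spike-in centring could not remove the call, since it lowers every ratio, nor could the mean over probes, since both probes passed the rule. Centring on the median probe hardly moved the mean, to -1.93. The background corrections, which could have removed the call, gave -1.53 with normexp and loess and -1.94 without dye normalisation. The filter and single-array alternatives could not remove its call, since both its channels were well above background and a call needs both arrays. Aldh1a1 ranged from -0.019 (spike-in centring) to 0.80 (array 1 alone). The count of members called, 0 higher and 1 lower, was the same under every alternative run, thresholds included. The median over measured members was -1.22 with spike-in centring and 0.0091 with dim probes kept. The wider pathway count of 13 higher became 5 with spike-in centring, 4 with normexp and loess on array 1, 21 at 1.5-fold and 5 at 3-fold, and Sdr16c6, Cyp2e1 and Rarres1 were called under both spike-in centring and normexp. Its count of lower genes, 0, became 1 (Rai14) with spike-in centring and 1 at 1.5-fold. Counts over all genes, 389 higher and 176 lower, became 243 and 86 when both channels had to be well above background, 172 and 475 with spike-in centring, 107 and 56 with normexp and loess, 864 and 397 at 1.5-fold, and 140 and 95 at 3-fold. From 1 array alone, the lower count ran from 259 to 274. Fewer probes or a stricter threshold lower a count by construction, and a looser threshold or the use of 1 array raises it. Spike-in centring lowers every ratio, so by construction it lowers the count of higher genes and raises that of lower genes. For the other changes the cause was not tested. Signal limited 7 of the 9 members, whose ratios could be read neither as a change nor as the lack of one.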
